A study of Mus musculus with 48 samples.

Results

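The dentate gyrus (DG) of mice given the antioxidant BuOE was compared between spaceflight and ground control. The members were 6 of the 48 areas of illumination (AOIs) of the series, the DG AOIs of the 3 FLT-BuOE mice and of the 3 GC-BuOE mice, chosen by region and group from the sample labels. Transcripts were quantified by digital spatial profiling (DSP) on the GeoMx platform, in which DNA-tagged probes bind transcripts in a tissue section and ultraviolet light releases the tags of a chosen area for sequencing. All 12 mice of the series were male C57BL/6 mice, 10 weeks old at launch, and each gave 1 AOI from each of 4 brain regions (CA and DG of the hippocampus, FCT and CT of the cortex). FLT mice spent 35 days in orbit and reached the laboratory within 20 h of splashdown. GC mice stayed on the ground in flight hardware cages, with housing at 26 to 28 °C in both arms and a protocol that began 3 days after that of the flight mice. BuOE (MnTnBuOE-2-PyP5+), a manganese porphyrin that mimics superoxide dismutase, was injected subcutaneously at 1 mg/kg in 0.2 mL from 7 days before launch and then weekly, while the SAL groups received saline. Each of the 4 groups had a slide of its own, holding its 3 mice, so group and slide cannot be told apart, and neither can flight, landing and the hours after landing.

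The DG is the entry of the hippocampal circuit. Its granule cells receive the main cortical input, send mossy fibers to CA3 and fire sparsely, and new granule cells are added in adult rodents. Interneurons, mossy cells, glia and vessels lie among them, and an AOI pools the transcripts of all these cells. Fewer cells of a type and less RNA per cell cannot therefore be told apart in these values.

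The 6 AOIs held 416744 to 628791 deduplicated counts in FLT-BuOE and 564020 to 629956 in GC-BuOE. They covered 401 to 453 and 407 to 562 nuclei. Depth, nuclei and area gave p = 0.6, 0.6 and 0.5 in exact two-sided permutation tests, which with 3 mice against 3 cannot go below 0.1. The library of GC-BuOE mouse 3 stood apart, with a sequencing saturation of 81.7% against 95.0% to 95.8% in the other 5. It also had the lowest negative-control probe level, 9.24 against 10.4 to 12.3. Values are Q3-normalized counts, in which the upper quartile of every AOI is set to 40.02. That quartile corresponded to 24 to 36 counts of a gene, so most genes were measured with few counts.

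The labelled region was borne out by the granule cell markers Prox1 and C1ql2 and by the sum of their list, and less clearly by Dsp. The other members of that list were not compared singly. Prox1, the transcription factor that marks granule cells, was at 88.4 to 149 in DG and at 17.7 to 41.5 in CA, FCT and CT of the same mice. C1ql2, a secreted synaptic protein of mossy fibers, was at 75.04 to 106 in DG and at 17.8 to 40.02 elsewhere. Wfs1, a marker of CA1, was at 21.1 to 36.7 in DG and at 70.4 to 108 in CA. The granule cell list summed to 782 to 963 in DG and to 299 to 369 in the other regions. Its member Dsp overlapped, at 22.2 to 40.02 in DG and 13.3 to 35.7 in CA. The mossy cell list also overlapped, with sums of 45.03 to 85.6 in DG and 56.9 to 88.9 in CA.

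Of 15782 genes tested, 17 (0.108%) were differentially expressed genes (DEGs) between FLT-BuOE and GC-BuOE in DG, taken as a limma adjusted p under 0.05 together with a change of over 1.5-fold. After flight 7 (0.0444%) were higher and 10 (0.0634%) lower. The genes that rose included Ptgds, a prostaglandin D2 synthase that is also secreted into the cerebrospinal fluid, and both cold-inducible RNA-binding proteins, Cirbp and Rbm3. The genes that fell included 3 molecular chaperones, Hsph1, Hspa8 and Hsp90b1, the neuronal transcription factor Neurod2, the membrane-anchored metalloproteinase Mmp17 and the T-type calcium channel Cacna1h. At an unadjusted p below 0.05 there were 1301 genes (8.24%), 611 higher (3.87%) and 690 lower (4.37%). The 3 flight values lay wholly above or below the 3 ground values in 1656 genes (10.5%), of which 814 were higher (5.16%) and 842 lower (5.34%). With 3 against 3, values in random order separate with a probability of 0.1, so this share is near that of no difference. Separation of the DEGs is a description, as they were selected on the same values. The test draws the spread of each gene toward that of genes of like level. When it was drawn toward 1 common spread for all levels instead, limma passed no gene, with 1267 at an unadjusted p below 0.05. On the counts edgeR gave 19 DEGs (0.12%), 14 of them among the 17.

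**Figure D1:**
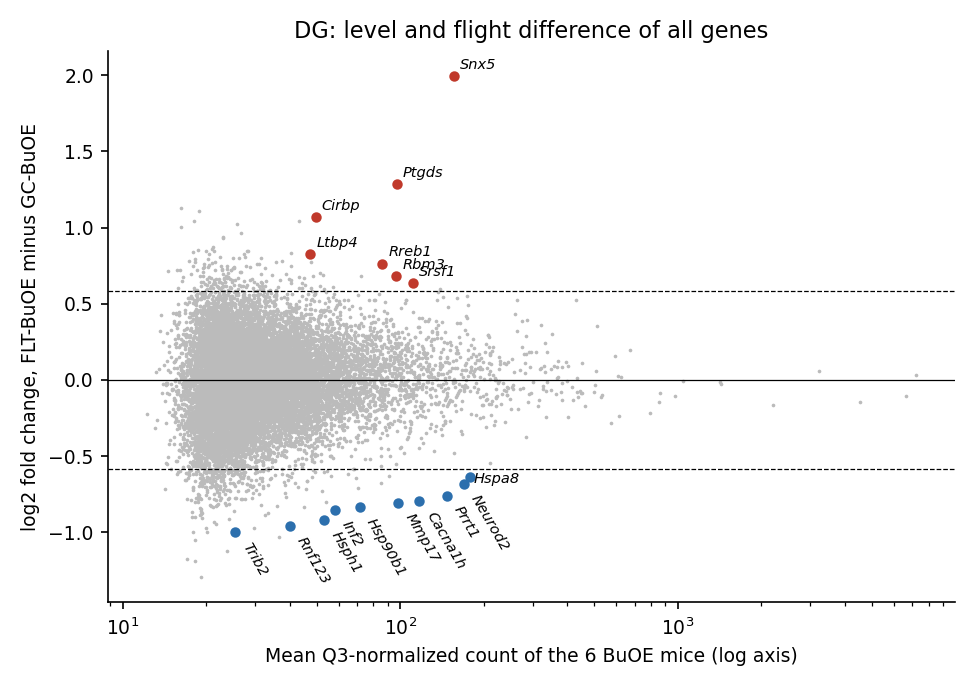
Each point is 1 of 15782 genes in DG, with the mean Q3-normalized count of the 6 BuOE mice on a log axis and the log2 fold change of FLT-BuOE minus GC-BuOE on the vertical axis. Dashed lines mark a 1.5-fold change in either direction, red points are the 7 DEGs higher and blue points the 10 DEGs lower after flight, and the scatter is widest among genes of low count.

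Ptgds gave the smallest p of the 15782 genes. Its Q3-normalized counts were 150.1, 154 and 110.1 in the FLT-BuOE mice and 65.6, 48.8 and 53.4 in the GC-BuOE mice. Every flight value was above every ground value. The means were 138 ± 24.3 (SD, n = 3) and 55.9 ± 8.69 (SD, n = 3), and the log2 fold change was 1.28 ± 0.19 (SE, limma adjusted p = 8.31e-05). Ptgds lies at chr2:25466709-25470046 (GRCm38, minus strand) and is made in brain mainly by meningeal cells, choroid plexus and oligodendrocytes. It was the only DEG among 7 measured meningeal genes of 8 listed, beside 0.0444% of all genes that were DEGs higher after flight. The other 6 had log2 fold changes from -0.42 (Dcn) to 0.51 (Igf2). The summed level of those 6 was 136 to 153 in FLT-BuOE and 129 to 131 in GC-BuOE. None of the 11 measured oligodendrocyte and myelin genes of 12 listed was a DEG, beside 0.108% of all genes. They summed to 612 to 827 and 515 to 566. The part of either cell type in the Ptgds difference was not tested.

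Cirbp and Rbm3 are RNA-binding proteins whose transcripts rise when cells are cooled mildly, and both rose. Cirbp (chr10:80165985-80172786) was at 55.0, 80.0 and 67.8 in FLT-BuOE and at 33.4, 28.8 and 32.2 in GC-BuOE, with a log2 fold change of 1.07 ± 0.18 (limma adjusted p = 0.00154). Rbm3 (chrX:8138975-8145880) was at 112, 134 and 113 in FLT-BuOE and at 77.8, 73.8 and 70.04 in GC-BuOE, with a log2 fold change of 0.68 ± 0.14 (adjusted p = 0.0195). Neither gene had overlapping groups.

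The other DEGs that rose act in different processes. Ltbp4 (chr7:27305136-27337692), which binds latent TGF-beta in the extracellular matrix, was at 61.7, 63.8 and 56.7 against 31.1, 33.8 and 36.7, with a log2 fold change of 0.83 ± 0.19 (adjusted p = 0.045). Rreb1 (chr13:37778400-37952005), a zinc finger transcription factor downstream of Ras, was at 100.1, 114 and 110.1 against 62.3, 52.5 and 76.7, with 0.76 ± 0.17 (adjusted p = 0.0311). Srsf1 (chr11:88047373-88053755), a splicing factor, was at 140.1, 136 and 129 against 80.0, 85.0 and 95.6, with 0.63 ± 0.15 (adjusted p = 0.0478). These 3 genes were higher in every flight mouse than in every ground mouse.

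Snx5 (chr2:144250123-144270906), a sorting nexin of endosomes, was a DEG through 1 mouse. It was at 31.7, 38.8 and 790.5 in FLT-BuOE and at 36.7, 17.5 and 22.2 in GC-BuOE, so the groups overlapped. The high value, in FLT-BuOE mouse 3, rests on 711 counts, and the same mouse had Q3-normalized counts of 57.4 (CA), 41.3 (FCT) and 47.7 (CT). The log2 fold change was 2.00 ± 0.45 (adjusted p = 0.0402), and without this mouse it was 0.51 (adjusted p = 0.494).

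Chaperones were among the genes that fell. Hsph1 (chr5:149614287-149636376), an Hsp110 family member that helps Hsp70 exchange nucleotide, was at 35.0, 51.3 and 25.6 in FLT-BuOE and at 72.3, 61.3 and 73.4 in GC-BuOE, with a log2 fold change of -0.92 ± 0.18 (adjusted p = 0.0134). Hspa8 (chr9:40800984-40810087), the constitutive Hsp70 that also uncoats clathrin vesicles, was at 153, 148 and 117 against 241, 195 and 213, with -0.64 ± 0.13 (adjusted p = 0.0195). Hsp90b1 (chr10:86690209-86705509), the Hsp90 of the endoplasmic reticulum, was at 40.02, 50.03 and 63.4 against 92.3, 73.8 and 109, with -0.84 ± 0.17 (adjusted p = 0.0195). All 3 were lower in every flight mouse than in every ground mouse. With the number of nuclei as a covariate none of the 3 passed, with log2 fold changes of -0.86, -0.59 and -0.79 (limma adjusted p = 0.0569, 0.0766 and 0.0652). Ltbp4, Rreb1, Snx5 and Srsf1 were lost in that fit too.

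Neurod2, Prrt1 and Cacna1h also fell. Neurod2 (chr11:98325415-98329648), a basic helix-loop-helix factor of excitatory neurons, was at 128, 128 and 131 in FLT-BuOE and at 169, 206 and 257 in GC-BuOE, with a log2 fold change of -0.68 ± 0.13 (adjusted p = 0.0124). Prrt1 (chr17:34629533-34633126), an auxiliary protein of AMPA receptors, was at 118, 95.1 and 113 against 170.1, 165 and 222, with -0.76 ± 0.15 (adjusted p = 0.012). Cacna1h (chr17:25374285-25433783), the pore subunit of a T-type calcium channel, was at 66.7, 101 and 85.6 against 110.1, 139 and 201, with -0.80 ± 0.17 (adjusted p = 0.0211). No groups overlapped, and GC-BuOE mouse 3 had the highest value of all 3 genes.

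The remaining 4 genes that fell differ in role. Mmp17 (chr5:129584169-129611099) was at 76.7, 68.8 and 67.8 in FLT-BuOE and at 109, 129 and 139 in GC-BuOE, with a log2 fold change of -0.81 ± 0.15 (adjusted p = 0.00545). Inf2 (chr12:112588784-112615557), a formin that assembles actin, was at 38.4, 43.8 and 40.02 against 57.8, 93.8 and 75.6, with -0.85 ± 0.17 (adjusted p = 0.0134). Rnf123 (chr9:108051534-108083346), a ubiquitin ligase subunit, was at 21.7, 26.3 and 33.4 against 48.9, 57.5 and 52.3, with -0.96 ± 0.19 (adjusted p = 0.012). None of these overlapped between groups. Trib2 (chr12:15791727-15816922), a pseudokinase of the Tribbles family, was at 21.7, 11.3 and 17.8 against 26.7, 40.02 and 35.6, with -0.997 ± 0.23 (adjusted p = 0.0492). Its groups were separate too, and it was the lowest DEG, at 2.31 times the negative-control probes.

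**Figure D2:**
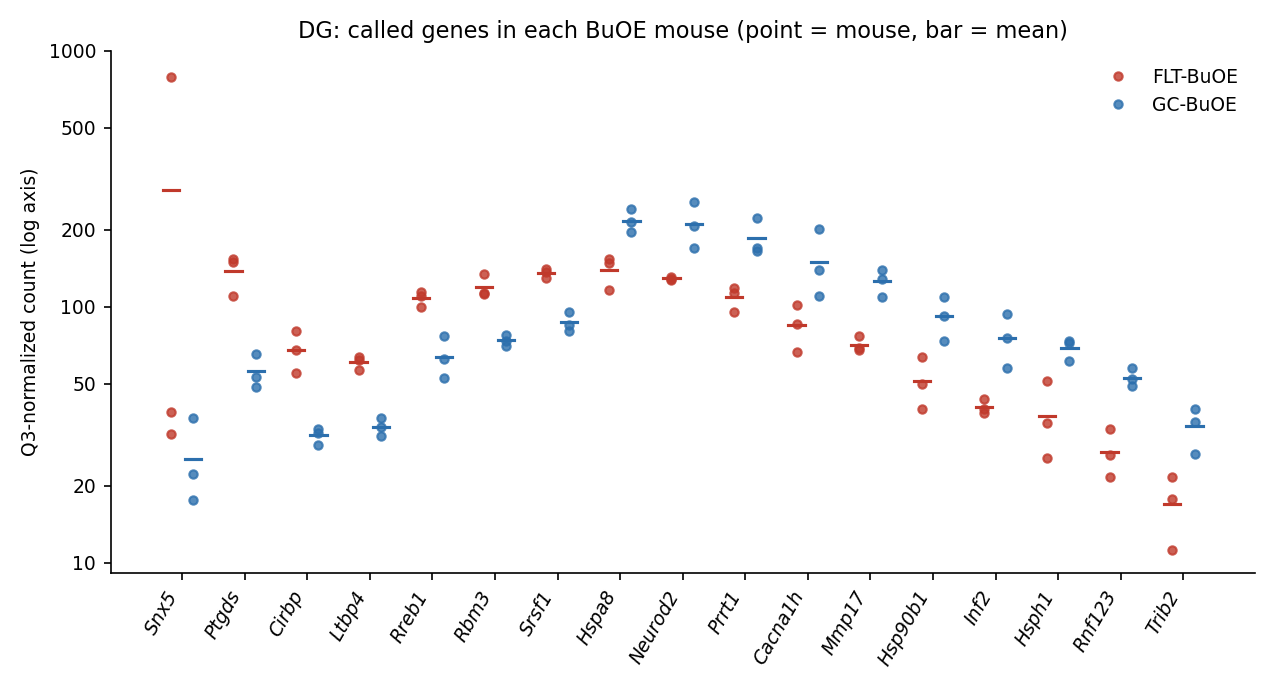
Q3-normalized counts in DG (log axis) of the 17 DEGs in the 3 FLT-BuOE mice (red) and the 3 GC-BuOE mice (blue), with 1 point for each mouse and a bar for the mean of 3. The groups overlap in 1 gene, Snx5, where 1 flight mouse is at 790.5.

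Several genes lay just outside the thresholds. Tmem191c, Dennd6b and the myelin gene Mobp had log2 fold changes of 0.77 ± 0.18, 0.68 ± 0.16 and 0.60 ± 0.14, each with an adjusted p of 0.0584. Mobp was at 137, 200.1 and 168 in FLT-BuOE and at 108, 115 and 106 in GC-BuOE, with no overlap. A further 5 genes, named after their values were seen, passed the adjusted p but not the fold. These were the CaM kinase II inhibitor Camk2n1 (log2 fold change 0.53), the thyroid hormone receptor Thra (0.53), the chromatin remodeler Chd4 (0.58), the RNA helicase Ddx17 (0.55) and Dtx3 (-0.54).

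Most DEGs lost the call in at least 1 of the fits that left out 1 of the 6 BuOE mice, and such fits have fewer mice. Ptgds and Cirbp remained DEGs without any 1 of the 6 BuOE mice, with log2 fold changes of 1.19 to 1.44 and 0.94 to 1.21 and largest adjusted p values of 0.0106 and 0.0313. Without GC-BuOE mouse 3 there were 6 DEGs, and 3 of the 17 were among them (Ptgds, Cirbp and Rreb1). No DEG that had fallen in the fit with all mice was among them. Without GC-BuOE mouse 2 there were 9, of which 7 were shared, the 3 chaperones included. Only this 1 of the 6 fits kept all 3 chaperones, and without GC-BuOE mouse 1 or mouse 3 all 3 were lost. Without each of the other 4 mice there were 12 to 19, of which 9 to 12 were shared. Mmp17 was lost only without GC-BuOE mouse 3 (adjusted p = 0.0845), whereas Ltbp4 and Srsf1 were lost in all 6 fits. The log2 fold changes of these 2 stayed at 0.77 to 0.88 and 0.58 to 0.70, so their calls were near the threshold. All 17 kept their sign in these 6 fits.

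Promoters are shown for the 2 DEGs with the largest rise and the 2 with the largest fall. RefSeq promoters of build GRCm38.p6 were found for 13 of the 17 DEGs. Each run is the 250 bases before the start that RefSeq annotates, 5′ to 3′ on the strand of the gene. RefSeq and GENCODE place some starts differently, and by the GENCODE bounds given above the runs of Snx5, Ptgds, Rnf123 and Cirbp lie inside the gene and those of Trib2, Hsph1 and Hsp90b1 overlap its start. Capitals mark a match, on either strand, to any of 5 short motifs. These were TGACGT (cAMP response element core), TGANTCA (AP-1), CACGTG (E-box), GAANNTT (heat shock element core) and TGCNCNC. The last is a looser form of the metal response element core TGCRCNC, where R is A or G. Of 32851 RefSeq promoters, 6.47%, 6.75%, 6.02%, 32.4% and 44.4% hold these motifs, in this order. The 4 promoters lie on the minus strand, Snx5 at chr2:144270573-144270822, Ptgds at chr2:25469750-25469999, Trib2 at chr12:15816786-15817035 and Rnf123 at chr9:108079302-108079551.
Snx5: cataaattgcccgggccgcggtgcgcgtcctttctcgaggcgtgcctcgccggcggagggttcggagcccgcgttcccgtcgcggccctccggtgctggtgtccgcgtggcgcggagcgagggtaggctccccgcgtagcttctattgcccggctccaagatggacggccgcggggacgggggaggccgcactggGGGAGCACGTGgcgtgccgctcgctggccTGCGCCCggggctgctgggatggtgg
Ptgds: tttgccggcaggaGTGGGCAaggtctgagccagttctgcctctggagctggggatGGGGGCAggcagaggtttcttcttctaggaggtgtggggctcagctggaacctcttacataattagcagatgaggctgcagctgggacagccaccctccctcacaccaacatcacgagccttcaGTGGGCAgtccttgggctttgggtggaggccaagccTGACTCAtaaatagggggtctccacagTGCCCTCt
Trib2: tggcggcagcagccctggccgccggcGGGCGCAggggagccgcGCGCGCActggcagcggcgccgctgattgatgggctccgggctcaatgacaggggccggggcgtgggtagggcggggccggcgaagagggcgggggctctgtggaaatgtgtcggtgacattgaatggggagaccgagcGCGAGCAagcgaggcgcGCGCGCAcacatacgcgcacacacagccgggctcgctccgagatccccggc
Rnf123: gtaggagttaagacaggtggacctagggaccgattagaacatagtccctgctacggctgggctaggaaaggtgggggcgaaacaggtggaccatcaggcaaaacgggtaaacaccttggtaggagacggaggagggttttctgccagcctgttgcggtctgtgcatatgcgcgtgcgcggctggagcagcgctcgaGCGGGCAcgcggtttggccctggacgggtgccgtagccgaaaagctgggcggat
Ptgds held 1 AP-1 match, 35 bases before the start, and 4 matches to TGCNCNC. Snx5 held 1 E-box that overlaps 1 of its 2 matches to TGCNCNC, Trib2 held 4 such matches and Rnf123 held 1. None of those in Ptgds or Rnf123 has A or G at the R base, so none is a metal response core.

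A cold-inducible gene and 2 chaperones were added after their values were seen, to set genes that rose beside genes that fell. Cirbp lies at chr10:80167589-80167838 on the plus strand, and Hsph1 at chr5:149636337-149636586 and Hsp90b1 at chr10:86705445-86705694 lie on the minus strand.
Cirbp: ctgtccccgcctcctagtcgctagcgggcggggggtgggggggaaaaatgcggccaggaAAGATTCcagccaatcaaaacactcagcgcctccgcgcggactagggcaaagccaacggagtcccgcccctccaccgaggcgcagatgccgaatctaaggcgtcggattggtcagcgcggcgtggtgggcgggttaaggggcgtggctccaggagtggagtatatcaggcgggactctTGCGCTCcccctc
Hsph1: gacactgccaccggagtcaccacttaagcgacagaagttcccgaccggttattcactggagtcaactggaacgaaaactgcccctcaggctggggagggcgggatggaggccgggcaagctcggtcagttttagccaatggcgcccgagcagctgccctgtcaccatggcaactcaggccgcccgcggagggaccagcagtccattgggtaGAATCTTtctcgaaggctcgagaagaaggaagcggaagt
Hsp90b1: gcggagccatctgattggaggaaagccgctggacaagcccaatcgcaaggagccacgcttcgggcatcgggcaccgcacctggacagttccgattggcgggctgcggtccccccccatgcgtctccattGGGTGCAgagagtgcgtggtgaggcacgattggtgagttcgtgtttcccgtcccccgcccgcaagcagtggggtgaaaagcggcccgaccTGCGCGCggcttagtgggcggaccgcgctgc
The heat shock core, held by 32.4% of all promoters, was found once in Hsph1, 39 bases before the start, and once in Cirbp, 191 bases before it. A match of letters is a description, and binding was not measured.

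Heat shock proteins, many of them cytosolic, keep proteins folded. Of 18 measured genes of 19 listed, 2 fell (Hsph1 and Hspa8, beside 0.0634% of all genes), none rose and 16 did not pass. The log2 fold change was negative in 17 of the 18, with a median of -0.26 beside -0.01 over all genes. The flight values lay wholly below the ground values in 6 genes, beside 5.34% of all genes. Ahsa1, a cochaperone of Hsp90, was at 45.0, 52.5 and 56.7 in FLT-BuOE and at 66.7, 62.5 and 76.7 in GC-BuOE (log2 fold change -0.41 ± 0.17, adjusted p = 0.468). The heat-inducible Hspa1a was the exception to the sign, at 30.0, 17.5 and 17.8 against 20.0, 13.8 and 20.0, with overlapping groups (0.24 ± 0.27). The 18 genes summed to 961 to 1066 and 1149 to 1270. In saline mice they summed to 1106 to 1124 after flight and 1074 to 1284 on the ground, with overlap and a median of -0.06.

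The unfolded protein response adjusts the folding enzymes of the endoplasmic reticulum to the load of new proteins. Of 15 listed genes, all measured, 1 fell (Hsp90b1, beside 0.0634% of all genes), none rose and 14 did not pass. The log2 fold change was negative in 12, the median was -0.46, and groups lay apart in 6, all lower, beside 5.34% of all genes. Pdia3, a disulfide isomerase, was at 58.4, 61.3 and 76.7 in FLT-BuOE and at 96.7, 92.6 and 128 in GC-BuOE, without overlap (-0.68 ± 0.16, adjusted p = 0.0584). Hspa5, the main Hsp70 of this compartment, was at 16.7, 32.5 and 32.2 against 34.5, 41.3 and 48.9, also without overlap (-0.64 ± 0.23, adjusted p = 0.378). Xbp1, the transcription factor of the response, had a log2 fold change of -0.55 ± 0.19 (adjusted p = 0.312). Herpud1, Ddit3 and Creld2 were above 0, at 0.31, 0.16 and 0.10. The 15 genes summed to 520 to 607 in FLT-BuOE and 693 to 870.5 in GC-BuOE. In saline mice they summed to 516 to 628 after flight and 669 to 746 on the ground, also without overlap. Their median under saline was -0.27, and none was a DEG there, beside 0.266% of all genes.

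**Figure D3:**
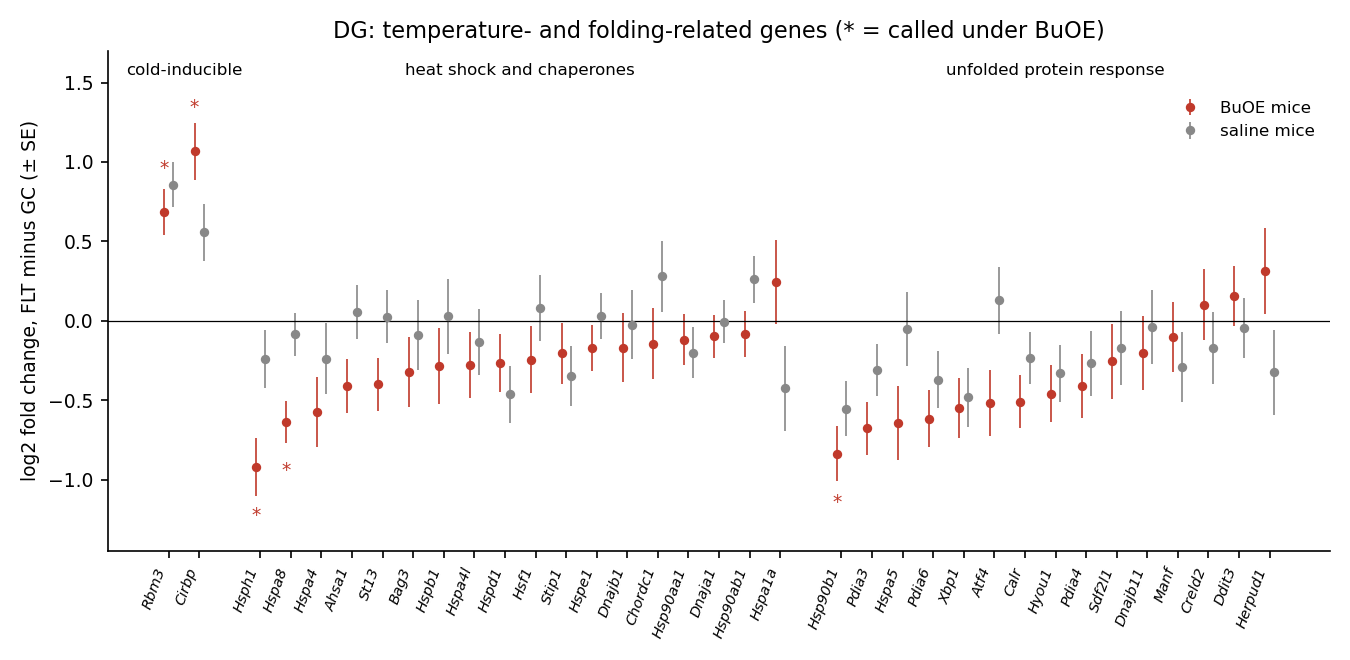
Log2 fold change of FLT minus GC in DG, with SE, for the cold-inducible genes, the heat shock and chaperone genes and the unfolded protein response genes, in BuOE mice (red) and saline mice (grey). Stars mark the 5 DEGs under BuOE, and 17 of 18 heat shock genes and 12 of 15 unfolded protein response genes lie below 0 in BuOE mice.

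Among the cell type lists only the meningeal one held a DEG, Ptgds, beside 0.108% of all genes that were DEGs. The 12 dentate granule cell genes had a median log2 fold change of 0.12 and summed to 807 to 963 in FLT-BuOE and 782 to 877 in GC-BuOE, with Prox1 at 0.02 ± 0.15 and C1ql2 at 0.25 ± 0.14. Of 11 measured interneuron genes of 12 listed, 9 were negative, with a median of -0.25 and sums of 328 to 358 against 399 to 454. The neuropeptide gene Npy was at 28.4, 17.5 and 21.1 against 37.8, 56.3 and 24.5, with overlapping groups (-0.75 ± 0.25, adjusted p = 0.312). The GABA synthesis enzyme Gad1 was at -0.31 ± 0.16 (adjusted p = 0.614). The medians of the astrocyte, microglia and vessel lists were 0.02, -0.03 and 0.10.

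BuOE acts on redox chemistry, and no gene of the redox lists passed, beside 0.108% of all genes. In 25 measured antioxidant and glutathione genes of 27 listed the median log2 fold change was -0.06. Prdx1, a peroxiredoxin that reduces peroxides, was at 20.0, 30.0 and 23.3 in FLT-BuOE and at 38.9, 43.8 and 34.5 in GC-BuOE, without overlap (-0.67 ± 0.21, adjusted p = 0.228). Catalase (Cat) was at 46.7, 31.3 and 37.8 against 26.7, 31.3 and 16.7, with groups that met (0.64 ± 0.24, adjusted p = 0.388). The superoxide dismutases Sod1 and Sod2 were at 0.22 ± 0.15 and -0.12 ± 0.16. The metal-binding metallothionein Mt1 was at 195, 210.1 and 165 against 113, 141 and 137, without overlap (0.54 ± 0.14, adjusted p = 0.135), while Mt3 was at -0.59 ± 0.18 (adjusted p = 0.226).

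Neuronal activity, clock and metabolic lists held no DEG either, beside 0.108% of all genes. The clock genes Per1 and Per3 were at 0.47 ± 0.17 and 0.45 ± 0.16 (both adjusted p = 0.378), and Per2 was at -0.36 ± 0.21. Among 22 glutamate receptor genes the median log2 fold change was 0.11, and the AMPA receptor subunit Gria2 was at 0.40 ± 0.12 (adjusted p = 0.218). The immediate early genes had a median of -0.08, with Fos at -0.46 ± 0.30 and Arc at -0.31 ± 0.18. The medians of the oxidative phosphorylation and ribosomal protein lists were 0.02 and -0.02, and that of glycolysis was 0.08.

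The flight difference under BuOE was set against that under saline, measured in DG of 6 other mice. Under saline 42 genes (0.266%) were DEGs, 39 higher (0.247%) and 3 lower (0.019%). Rbm3 was the 1 gene called under both treatments. It was at 126, 132 and 134 in FLT-SAL and at 64.9, 68.9 and 82.0 in GC-SAL, without overlap, with a log2 fold change of 0.86 (adjusted p = 0.00051). Cirbp was at 59.3, 53.02 and 75.04 against 41.4, 43.7 and 40.02, also without overlap (0.56, adjusted p = 0.245). Ptgds overlapped under saline, at 86.0, 123 and 91.5 against 41.4, 97.7 and 76.0 (0.54, adjusted p = 0.306). Of the 17 DEGs under BuOE, 15 had the same sign under saline, with a median size of 0.18 against 0.83 under BuOE, where they were selected. The 39 genes higher under saline had a median log2 fold change of 0.19 under BuOE, beside -0.01 over all genes. Of these 39, 33 were positive under BuOE, beside 7728 of all 15782 genes.

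No gene passed the test of the difference itself (limma interaction, adjusted p below 0.05), with 1009 genes (6.39%) at an unadjusted p below 0.05, and edgeR passed 7 (0.0444%), with 1011 (6.41%) at an unadjusted p below 0.05. Of those 7, 3 had 1 AOI far from the other 11, Snx5 in FLT-BuOE mouse 3 and Pik3r4 and Khnyn in GC-SAL mouse 2, at 3437 and 199 against at most 27.8 and 42.2. The smallest limma adjusted p was 0.079. Klf9, a transcription factor induced by glucocorticoids, was at 60.04, 73.8 and 77.8 in FLT-BuOE and at 97.8, 100.1 and 100.1 in GC-BuOE. It was at 106, 101 and 104 in FLT-SAL and at 49.7, 80.0 and 79.0 in GC-SAL, so neither pair of groups overlapped and the order turned. The difference of the log2 fold changes was -1.10 (limma adjusted p = 0.079, edgeR adjusted p = 0.022). Mmp17 was at 121, 124 and 106 in FLT-SAL and at 82.8, 119 and 111 in GC-SAL, with overlapping groups, and its difference was -0.98 ± 0.21 (limma adjusted p = 0.081, edgeR adjusted p = 0.022). Adcy1, a calcium-stimulated adenylyl cyclase, differed by -0.84 (limma adjusted p = 0.079, edgeR adjusted p = 0.022). Its log2 fold change was -0.06 under BuOE and 0.78 under saline. The chaperones Hspa8, Hsph1 and Hsp90b1 had differences of -0.55 ± 0.19, -0.68 ± 0.26 and -0.28 ± 0.25 (limma adjusted p = 0.572, 0.675 and 0.909).

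**Figure D4:**
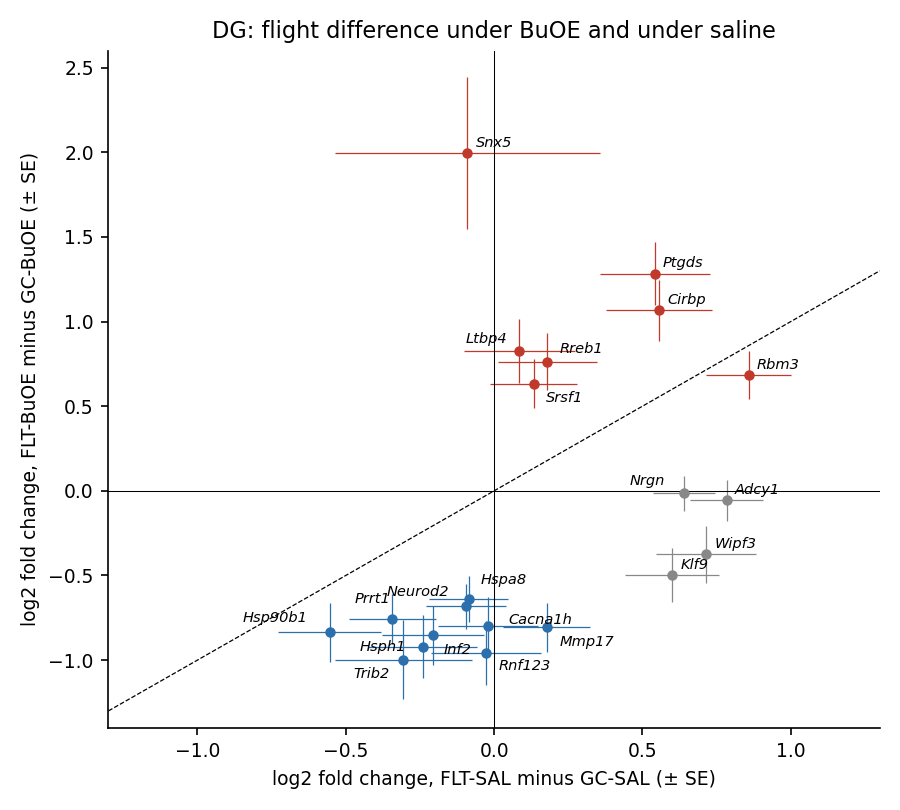
Log2 fold change of flight minus ground in DG under saline (horizontal) and under BuOE (vertical), each with SE, for the 7 DEGs higher (red) and 10 DEGs lower (blue) under BuOE and for 4 further genes with a small interaction p (grey). The dashed line marks equal differences, Rbm3 lies closest to it among the genes that rose, and Klf9, Adcy1, Wipf3 and Nrgn lie to the right, positive under saline and at or below 0 under BuOE.

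The same mice gave AOIs of CA, FCT and CT, where 7 (0.0444%), 3 (0.019%) and 2 (0.0127%) genes were DEGs under BuOE. Hspa8 was also a DEG in CA, at 105, 119 and 94.0 in FLT-BuOE and at 185, 209 and 159 in GC-BuOE, without overlap (log2 fold change -0.79, adjusted p = 0.0264). Ptgds was also a DEG in FCT, at 252, 247 and 214 against 107, 48.2 and 124, without overlap (1.45, adjusted p = 0.00036). In CA and CT its log2 fold changes were 0.67 and 0.50 (adjusted p = 0.213 and 0.576). Cirbp was positive in all 3, at 0.47, 0.87 and 0.42, and Rbm3 was at 0.49, 0.70 and 0.59, with none of these past the threshold. The sign in DG was shared by 14, 16 and 15 of the 17 DEGs in CA, FCT and CT. These AOIs come from the same mice and slides, so a shared sign is not independent support. The share of all genes with a shared sign was not counted.

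No gene differed between the flight effect in DG and the mean of the other 3 regions (limma with mouse as a block, adjusted p below 0.05), with 857 genes (5.43%) at an unadjusted p below 0.05. Galnt9, a glycosyltransferase, had the smallest p, with a log2 fold change of 0.45 in DG against -0.48 (CA), -0.58 (FCT) and -0.71 (CT) (difference 1.04 ± 0.22, adjusted p = 0.197). Erh was at 53.4, 42.5 and 60.04 in FLT-BuOE and at 24.5, 30.0 and 31.1 in GC-BuOE in DG, without overlap (difference between regions 1.01 ± 0.24, adjusted p = 0.339). Rbm3 and Hspa8 differed between DG and the other regions by 0.09 ± 0.19 and -0.12 ± 0.17 on the log2 scale. Neurod2 and Ltbp4 differed by -0.61 ± 0.20 and 0.74 ± 0.25 (adjusted p = 0.75 and 0.76).

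**Figure D5:**
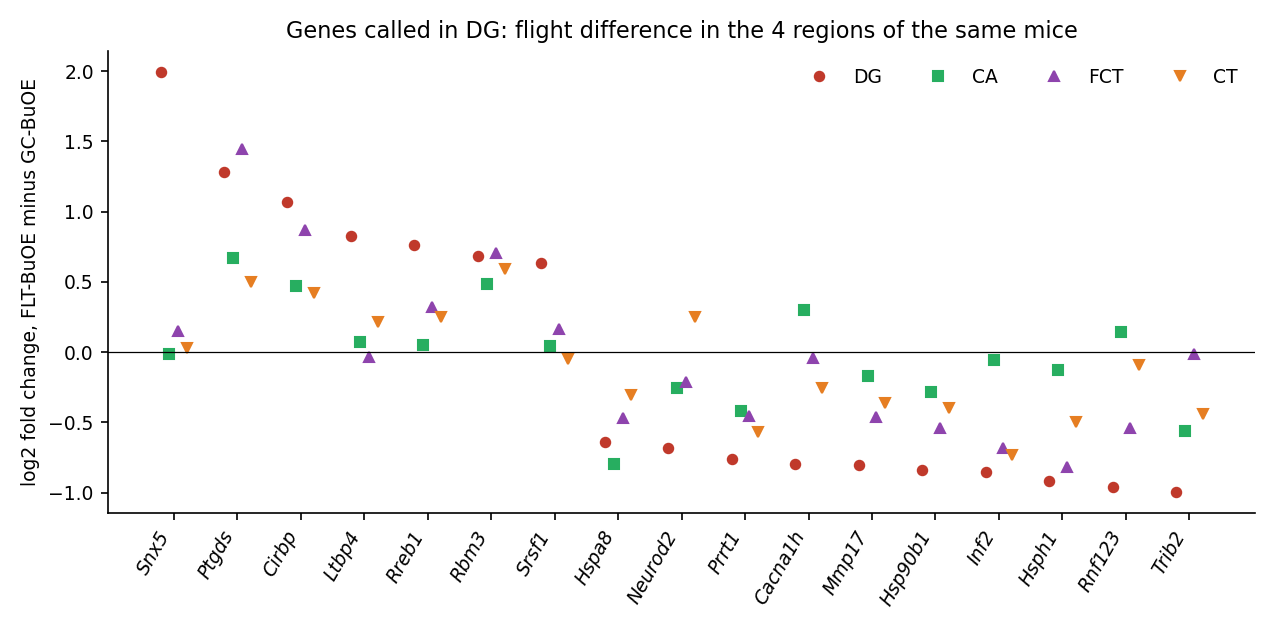
Log2 fold change of FLT-BuOE minus GC-BuOE for the 17 genes called in DG, in DG (red circles), CA (green squares), FCT (purple upward triangles) and CT (orange downward triangles) of the same 6 mice. Ptgds, Cirbp and Rbm3 are positive and Hspa8, Hsph1 and Hsp90b1 negative in all 4 regions, and Snx5 is far from 0 only in DG, where it is at 2.00.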

How the data were processed

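DG, CA, FCT and CT of 12 mice were profiled by GeoMx DSP with the mouse whole transcriptome probes, giving 48 AOIs. ROIs were chosen by the study with GFAP, Iba1 and Syto83 staining. The authors deposited deduplicated probe counts for each AOI and a Q3-normalized gene table, a signal scaled to 1 upper quartile. Deposited tables of the authors' own comparisons, with fold changes and p-values, were not used. Groups came from the sample labels. The members and gene lists were chosen with earlier results of these data known.

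Q3 values were tested as log2(value + 1) in limma 3.58.1 (R 4.3.3). The 12 DG AOIs entered 1 fit with group as the only term, a trend of variance on mean level, p-values adjusted by Benjamini-Hochberg across all 15782 genes, with 8 residual degrees of freedom. The flight contrast under BuOE, under saline, and their difference came from this fit. Fold changes are on the log2(value + 1) scale and understate low genes. DG was compared with the other regions in 24 BuOE AOIs with mouse as a block (consensus correlation 0.0158). No low-value filter was used. The deposited counts were tested with edgeR 4.0.16 and DESeq2 1.42.0 as alternatives, over 15779 genes that match 1 probe. Other alternatives were the pseudocount, filter, scaling, background, nuclei and leaving out mice. The code was tested on simulated data. Named genes were up to 15 DEGs a direction without overlap, filled to 10 with the next genes by p beyond the fold, the called members and first 2 measured genes of each list, and the 5 smallest p of each difference. Snx5, whose groups overlap, was added after its values were seen, as were members described beyond the first 2. Gene coordinates are GENCODE M21, GRCm38. The number of mice (3 per group) limits precision. The limma p-values rest on the spread between these mice together with spread borrowed from genes of like level. They therefore do not measure each gene's own spread between mice alone.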

Additional observations from a re-analysis of the deposited data

How the results depend on the processing

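The 17 DEGs became 0 with no mean-variance trend and 3 at a threshold of 1 on the log2 fold change. With the negative-probe level subtracted 4 remained (Cirbp, Mmp17, Ptgds and Rnf123, all among the 17). With the number of nuclei as a covariate 10 remained. The 3 chaperones, Ltbp4, Rreb1, Snx5 and Srsf1 were lost. The cause was not tested. DESeq2 gave 8, 7 of them shared, but 9 of the 17 got no adjusted p there, as did 14992 genes in all. DEGs numbered 14 to 19 under the other scalings, pseudocounts, filters and edgeR (19, of which 14 were shared), and 22 with no fold threshold. Leaving out 1 mouse gave 6 to 22 DEGs, the lowest without GC-BuOE mouse 3. Replicate numbers did not pair the mice (correlation of same-numbered deviations -0.0165 to 0.0221), and the replicate block gave 28 DEGs, all 17 included, and 5 genes for the difference between treatments. That difference counted 4 genes with median centring, 7 with edgeR, 1 with nuclei as a covariate and 0 to 5 without 1 mouse. The difference between regions counted 0 to 1 without 1 mouse, genes without overlap 2979 to 3377, and list members that were DEGs 2 to 6 (6 in all). The depth, an upper quartile of 24 to 36 counts a gene, limits what can be shown for low genes.

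None of the 17 DEGs turned its sign. Genes near 0 that were not DEGs did, and their log2 fold changes without 1 mouse ranged as follows: Prox1 -0.19 to 0.19, Dcx -0.12 to 0.24, Calb2 -0.29 to 0.32, Calcrl -0.15 to 0.45, Aqp4 -0.099 to 0.29, P2ry12 -0.39 to 0.18, Cldn5 -0.054 to 0.30, Kl -0.21 to 0.40, Hba-a1 -0.38 to 0.26, Sgk1 -0.18 to 0.084, Hspa1a -0.0022 to 0.37, Mt2 -0.27 to 0.30, Rpl10a -0.10 to 0.043, Syp -0.029 to 0.31. The others were Syn1 -0.030 to 0.095, Gria1 -0.015 to 0.12, Gabbr1 -0.12 to 0.12, Gabbr2 -0.12 to 0.044, Camk2a -0.031 to 0.11, Kcna1 -0.036 to 0.20, Kcna10 -0.20 to 0.21, Penk -0.20 to 0.037, Pdyn -0.28 to 0.21, Ifit1 -0.28 to 0.15, Ifit3 -0.46 to 0.0081, Col4a1 -0.14 to 0.038, Adcy1 -0.14 to 0.018, Nrgn -0.096 to 0.040. Other settings gave Prox1 -0.029 with nuclei as a covariate, Calcrl -0.16 with the negative-probe level subtracted, Aqp4 -0.030 with nuclei as a covariate, Kl -0.50 with the negative-probe level subtracted, Hba-a1 0.083 with the negative-probe level subtracted, Hba-a1 0.078 with nuclei as a covariate, Mt2 0.0018 with pseudocount 5, Mt2 0.0026 with TMM scaling, Mt2 0.11 with edgeR, Mt2 0.11 with edgeR with filterByExpr, Mt2 0.069 with DESeq2, Camk2a -0.022 with nuclei as a covariate, Kcna10 -0.13 with nuclei as a covariate, Pdyn 0.021 with the negative-probe level subtracted, Pdyn 0.14 with nuclei as a covariate, Ifit1 0.010 with nuclei as a covariate, Nrgn 0.012 with nuclei as a covariate.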
